A study of Schizosaccharomyces pombe with 261 samples.

Results

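Fission yeast (Schizosaccharomyces pombe) cells that had not been heated were compared between 3 mRNA-seq libraries labelled atf1Δ, all of series RNA3, and 6 libraries of wild type (WT), 3 of series RNA1 and 3 of series RNA2. These 9 libraries are the 0 min samples of those groups, out of 39 mRNA-seq libraries and 261 samples in the whole study of temperature increase. All groups share the mating type h+, the alleles ade6-DN/N, leu1-32 and ura4-DS/E, and a pair of silencing reporters beside a centromere, imr1L::ura4+ and otr1R::ade6+. The strain labelled atf1Δ carries atf1Δ::KanMX6 in addition. Libraries labelled pcr1Δ (pcr1Δ::KanMX6) and clr4Δ (clr4Δ::NatMX6), 3 each and also unheated and of series RNA3, were set beside the comparison. Cells grew at 30 °C in YES, a rich medium, to mid-log phase, were harvested at 0 min of heat treatment, and gave polyA RNA by hot phenol extraction. No WT library was labelled RNA3, so the strain and the series cannot be told apart in any difference from WT. The labels number the replicates 1 to 3 without saying whether they were separate cultures, so p-values measure the spread between these libraries, which may be technical. In RNA from a whole culture, more transcript per cell and more cells with the transcript cannot be told apart. A gene was called higher or lower only when its adjusted p was under 0.05 in the same direction against the WT of RNA1 and against the WT of RNA2.

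Atf1 is a bZIP transcription factor that acts downstream of the stress-activated MAP kinase Sty1. It binds DNA as a heterodimer with Pcr1 at sites related to the cAMP response element (CRE), whose core reads TGACGT. Its known targets include genes of glycerol synthesis, peroxide removal and trehalose metabolism, and the pathway also takes part in fbp1 derepression and in the switch from growth to mating. The values below concern the unheated state, before any added stress.

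The CRE core is shown first, for some of the called genes and for atf1. Its letters were found near the annotated starts of genes that were lower and of genes that were higher. They were also found near those of genes that were not called, such as pho84, whose sites are not printed. Each line gives 30 bases, 5′ to 3′ in the direction of the gene, read from the reference genome of build ASM294v3 (RefSeq), with the core in capitals and distances counted from the gene's 5′ start in the annotation of that build. TGACGTCA holds the core on both strands, so its overlapping matches were counted as 2. The first 6 sites belong to genes that were lower in the atf1Δ-labelled libraries, the next 4 to genes that were higher, and the last to atf1 itself.
gpd1, first base of the core at -123, ASM294v3 II:4035431-4035460, + strand: atgtcaggcatgTGACGTttggtatcacct
gpd1, at -74, ASM294v3 II:4035480-4035509, + strand: tgtagtgtttttACGTCAtttggtacggct
SPCC569.03, at -72, ASM294v3 III:2431506-2431535, - strand: attgattaaaaaTGACGTCAaacgagaatt
SPBC2A9.02, at -57, ASM294v3 II:2948523-2948552, + strand: tgtcgctcttttACGTCAtgatcgcttacc
grx1, at -72, ASM294v3 I:4874135-4874164, + strand: tacgtgctccacTGACGTatgaattagcaa
hhf3, at -118, ASM294v3 II:3529637-3529666, + strand: ctttaattaaatTGACGTaagttaataggg
ntp1, at -69, ASM294v3 II:206500-206529, + strand: gtcaggtagactACGTCAttgagtaacgaa
isp3, at -103, ASM294v3 I:95675-95704, + strand: aaaaatgattatACGTCAttttttttaata
cgs1, at -63, ASM294v3 I:3642954-3642983, + strand: tagtacattttaTGACGTatgagtgagcta
srk1, at -56, 1 of 3 matches, ASM294v3 III:1301869-1301898, + strand: gcatgatgccaaTGACGTacgttaacgaag
atf1, at -52, ASM294v3 II:1546153-1546182, + strand: aaagtgatgcaaTGACGTCAtctgtttgaa

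The start that a distance is counted from depends on the annotation. Of 6796 genes with the same 3′ end in the annotations of ASM294v3 and ASM294v2, 1996 had the same 5′ start (29.4%) and 4361 had starts within 50 bases (64.2%). With the ASM294v2 starts, which lie 124 and 390 bases further upstream for SPCC569.03 and SPBC2A9.02, the cores of these genes fell inside the transcript. Their first bases were then at 53 and 334, outside the window used next. The core of isp3 was at -274, also outside that window, and those of grx1, hhf3, cgs1 and atf1 were at -18, -8, -6 and -29.

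Within 250 bases before to 50 bases after the ASM294v3 start, the core on either strand was found in 34 of 233 genes at least 2-fold higher against each WT series (14.6%), in 16 of 119 genes at least 2-fold lower (13.4%), and in 387 of all 6126 tested genes with such a window (6.32%). Among protein-coding genes these shares were 22 of 121 (18.2%), 8 of 55 (14.5%) and 295 of 4972 (5.93%). Over all called genes the share was 11.4% of those higher (89 of 782) and 6.87% of those lower (53 of 772). Among called protein-coding genes it was 12% of those higher (71 of 590) and 5.78% of those lower (38 of 657), the latter near the 5.93% of all tested protein-coding genes. With the ASM294v2 starts, tried after the data were seen, the core was in 37 of 230 genes at least 2-fold higher (16.1%), 16 of 118 at least 2-fold lower (13.6%) and 380 of 6089 tested genes (6.24%). A match is a description of letters and says nothing of binding. gpx1, the gene with one of the largest falls, had no match within 250 bases before to 50 bases after its ASM294v3 start.

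Reads of atf1 itself were still counted in the atf1Δ-labelled libraries, which goes against the label if the whole gene was removed. The gene (SPBC29B5.01, II:1546194-1549862 on the + strand in build ASM294v2) had 143, 120 and 122 counts per 1e+06 of the TMM-scaled library size (CPM) in the 3 atf1Δ-labelled libraries. It had 415, 336 and 341 CPM in the pcr1Δ-labelled and 234, 202 and 192 CPM in the clr4Δ-labelled libraries, against 118, 127 and 146 CPM in WT of RNA1 and 206, 223 and 212 CPM in WT of RNA2. The atf1Δ-labelled values thus overlapped those of one WT series and lay below the other (log2 fold change -0.38 ± 0.11 SE against the mean of both; adjusted p = 0.90 against RNA1 and 2.2e-05 against RNA2), and were lower than in the pcr1Δ-labelled libraries of the same series (-1.50 ± 0.13, adjusted p = 5.3e-10). The labels do not say which stretch of atf1 the cassette replaced, and a count per gene does not show where in the gene its reads lie.

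Reads of the targeted gene were also counted in the other labelled deletions, below WT for pcr1 and above it for clr4. pcr1, which encodes the partner of Atf1, had 80.9, 68.9 and 67.1 CPM in the atf1Δ-labelled and 47.3, 42.0 and 37.6 CPM in the pcr1Δ-labelled libraries, against 54.0 to 70.9 CPM in WT of RNA1 and 56.0 to 86.3 CPM in WT of RNA2. clr4, the histone H3K9 methyltransferase gene, was at 172 to 180 CPM in the clr4Δ-labelled libraries, above every other unheated library of these groups (39 to 53.3 CPM). On either side of atf1, fic1 (88 to 93 CPM) and isp4 (25.5 to 27.7 CPM) were not called against both WT series, nor were the marker genes ura4, ade6 and leu1. The non-coding RNA SPNCRNA.1441 (II:1545428-1546254, + strand in build ASM294v2) overlaps the annotated start of atf1. Its log2 fold change was 1.21 against the mean of both WT series, and it was not called against both. ura4 read 68.0 to 72.3 CPM in the atf1Δ-labelled and 164 to 201 CPM in the clr4Δ-labelled libraries, against 72.6 to 90.2 CPM in WT.

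**Figure D1:**
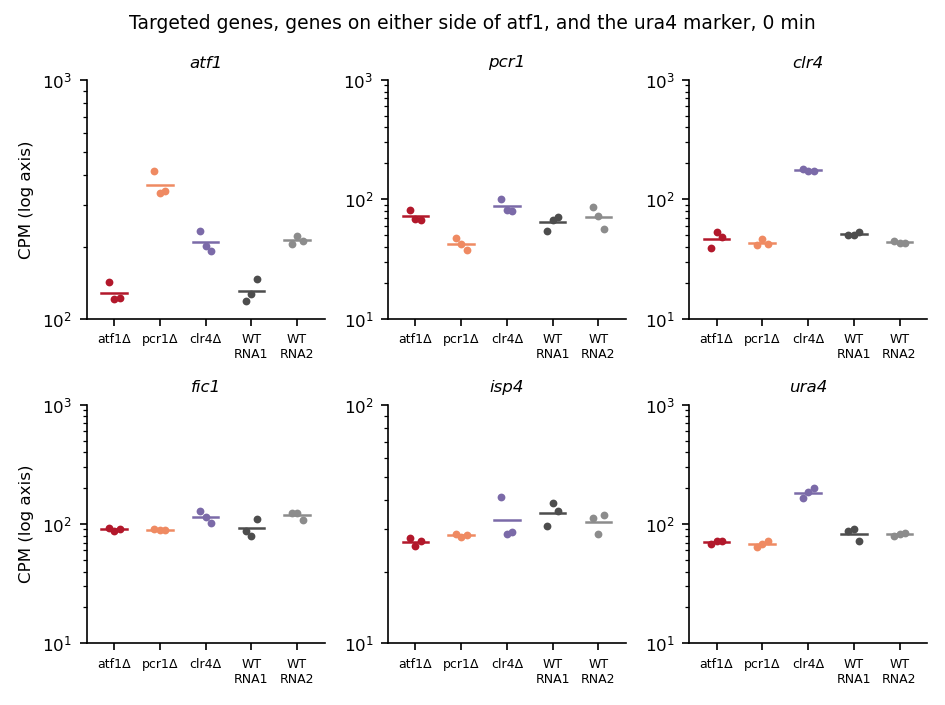
CPM (log axis) of atf1, pcr1, clr4, the genes on either side of atf1 (fic1, isp4) and ura4 in unheated libraries; each point is 1 library, the bar is the mean of 3, and Δ names are those of the labels. atf1 lies at 120 to 143 CPM in the atf1Δ-labelled libraries, and clr4 and ura4 are highest in the clr4Δ-labelled libraries.

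The 9 libraries held 8693850 to 11931806 counts in genes. Against the WT of RNA1, 1305 of 6172 tested genes were higher and 1229 lower (41.1% called), and against the WT of RNA2, 1286 were higher and 1325 lower (42.3%). Both comparisons use the same 3 atf1Δ-labelled libraries. The same direction was called against both for 786 genes higher (12.7%) and 776 lower (12.6%), while 31 genes were called in opposite directions. At least a 2-fold difference from each series was seen for 237 of the genes called higher and 121 of those called lower. The WT series also differed from each other at 1456 genes (23.6%), 602 higher and 854 lower in RNA1 than in RNA2, so a difference between series of the same strain reached many genes. Of the 1562 genes called here, 249 also differed between the WT series.

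Within series RNA3 the comparison could be made with another strain. Against the unheated clr4Δ-labelled libraries, 1421 genes were higher and 1428 lower (46.2% called), and this set held 653 of the 786 genes that were higher than both WT series (83.1%) and 629 of the 776 that were lower (81.1%). One higher gene and 0 lower genes were called in the opposite direction. The comparison with the clr4Δ-labelled libraries reuses the atf1Δ-labelled libraries of the calls against WT, so shared directions are partly built in. The clr4Δ-labelled strain also has a difference of its own. Whether the series contributed to the differences from WT was not tested. Against the pcr1Δ-labelled libraries of the same series, 77 genes were higher and 10 lower (1.41%).

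In CPM, the 3 atf1Δ-labelled libraries lay above all 6 WT libraries for 997 genes (16.2%) and below all 6 for 943 (15.3%), and 736 of the higher and 693 of the lower calls had such groups without overlap. Changes of at least 2-fold were mostly at genes with few reads in WT: the median WT level was 4.03 CPM for genes at least 2-fold higher and 5.63 CPM for those at least 2-fold lower, against 54.9 CPM over all tested genes. Long non-coding RNAs were called higher in 185 of 1083 (17.1%) and lower in 110 (10.2%), and protein-coding genes in 590 and 657 of 4972 (11.9% and 13.2%). Reads of genes that overlap on opposite strands cannot be assigned with certainty, since the strand setting of the counting is not given in the sources used here; 77 of the 165 genes whose values were tabulated for naming overlap another annotated gene on the opposite strand.

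**Figure D2:**
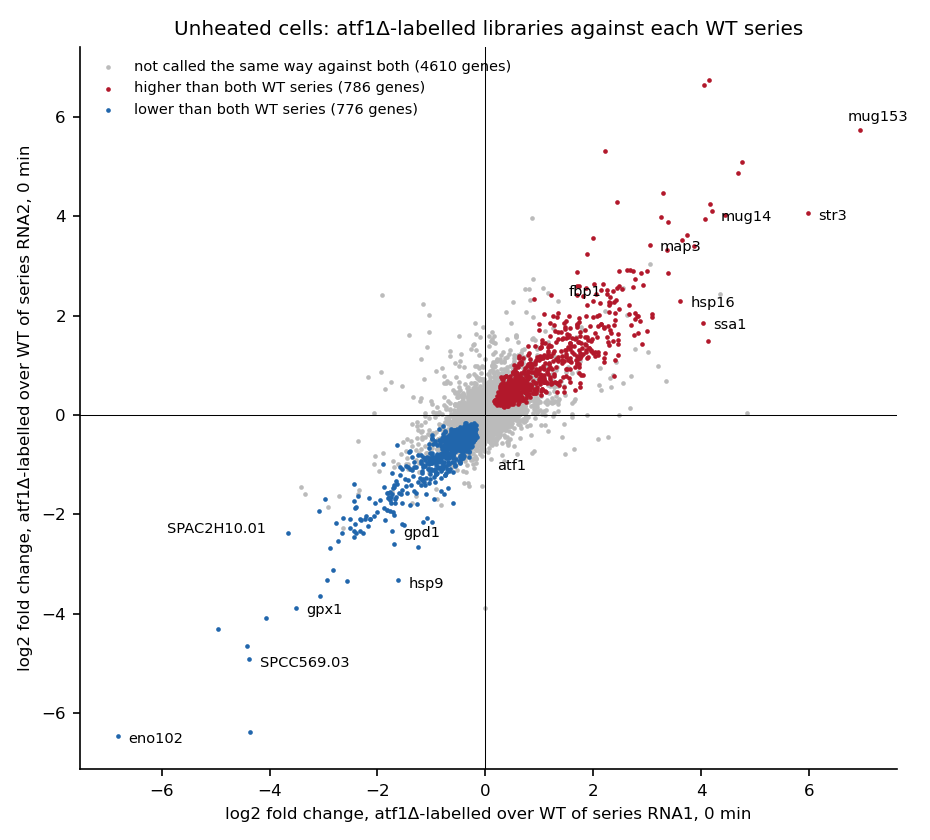
Log2 fold change of each tested gene in the unheated atf1Δ-labelled libraries over WT of RNA1 (x axis) and over WT of RNA2 (y axis); both axes share the atf1Δ-labelled libraries. Red points are the 786 genes higher and blue points the 776 genes lower than both WT series; mug153 and str3 lie at the upper right, and eno102, SPCC569.03 and gpx1 at the lower left.

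Stress genes under Sty1 and Atf1 split in both directions. On a list of core stress response genes known to depend on Atf1, 11 of 29 tested were higher (37.9%) and 5 lower (17.2%), against 12.7% and 12.6% of all tested genes (median log2 fold change 0.57, against 0.01 over all genes). Of the 11, 6 were also higher than in the clr4Δ-labelled libraries, beside 83.1% of the higher calls over all genes. The 5 lower ones were also lower than in those libraries. The WT series differed from each other at 12 of the 29 genes, against 23.6% of all tested genes. gpd1, glycerol-3-phosphate dehydrogenase, the first enzyme of glycerol synthesis, had 219, 222 and 202 CPM in the atf1Δ-labelled libraries, against 714, 805 and 603 CPM in WT of RNA1 and 1109, 1071 and 1071 CPM in WT of RNA2. Every atf1Δ-labelled library was below every WT library (-2.03 ± 0.15, adjusted p = 1.7e-10 against RNA1 and 3.5e-13 against RNA2), and the pcr1Δ-labelled libraries, at 218 to 344 CPM, were low too while the clr4Δ-labelled ones held 1401 to 1598 CPM.

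gpx1, glutathione peroxidase, had the deepest fall of the list. It was at 7.96, 10.9 and 9.09 CPM in the atf1Δ-labelled libraries, against 104, 105 and 112 CPM in WT of RNA1 and 158, 140 and 117 CPM in WT of RNA2 (-3.70 ± 0.19, adjusted p = 1.2e-15 and 2.3e-16). The groups did not overlap, and again the pcr1Δ-labelled libraries were at the low level (mean 8.91 ± 0.83, SD, n = 3) and the clr4Δ-labelled ones at the high level (170 ± 6.08). gpx1 overlaps SPBC32F12.16 on the opposite strand.

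hsp9, a small heat shock protein of the cell periphery, had 25.3, 27.4 and 25.6 CPM in the atf1Δ-labelled libraries, against 71.4, 98.4 and 69.4 CPM in WT of RNA1 and 506, 172 and 103 CPM in WT of RNA2. The WT libraries themselves spread widely, and all lay above the atf1Δ-labelled ones (-2.46 ± 0.33, the larger adjusted p of the pair being 0.00039); without the WT of RNA2 library of 506 CPM the value was -2.00. rds1, a stress-responsive gene, was also lower (25.6 to 29.7 CPM against 42.9 to 130 CPM in WT, -1.66 ± 0.34, larger adjusted p = 0.0025). ctt1, catalase, passed narrowly: its 62.8, 47.2 and 41.4 CPM lay below the 75.3 to 122 CPM of WT (-0.87 ± 0.22, larger adjusted p = 0.036), and leaving out atf1Δ-labelled replicate 2 or 3 or any one library of WT of RNA1 ended the call, with larger adjusted p of 0.103, 0.145, 0.0732, 0.0774 and 0.0528.

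The higher members of the list included trehalose and heat shock genes. A list of trehalose and glycerol metabolism had 3 of 9 higher and 3 lower, gpd1 among the lower ones (33.3% each, against 12.7% and 12.6% of all tested genes). ntp1, neutral trehalase, which breaks down trehalose, had 463, 469 and 466 CPM in the atf1Δ-labelled libraries, against 108, 120 and 101 CPM in WT of RNA1 and 228, 202 and 175 CPM in WT of RNA2. The libraries did not overlap (1.65 ± 0.12, larger adjusted p = 2.9e-08), although the WT series differed as well (-0.88 for RNA1 over RNA2, adjusted p = 4.1e-05). tps1, trehalose-6-phosphate synthase, was higher with the same reservation (595 ± 35.8 CPM, SD, n = 3, against 149 to 522 CPM in WT; 1.08 ± 0.16, larger adjusted p = 0.038). Its call ended without any one of the 3 atf1Δ-labelled libraries (0.0589, 0.0985 and 0.0525) and without WT of RNA2 replicate 2 or 3 (0.079 and 0.214), and it did not differ by the test from the clr4Δ-labelled libraries. plr1, pyridoxal reductase, and hsp20, a small heat shock protein, were higher by 1.05 ± 0.12 and 0.79 ± 0.08 (larger adjusted p = 3.9e-05 and 7.3e-07), and were also higher than in the pcr1Δ-labelled libraries. pyp2, the Sty1 phosphatase gene often used as an Atf1 target, read 28.2, 27.9 and 29.8 CPM against 13.8 to 20.8 CPM in WT and was not called (adjusted p = 0.12 and 0.0089).

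In the Sty1 pathway itself, 2 of 18 tested genes were higher (11.1%) and 4 lower (22.2%), against 12.7% and 12.6% of all tested genes. sty1, the kinase, had 296 to 356 CPM against 282 to 385 CPM in WT. srk1, a kinase activated by Sty1 that acts on the cell cycle, was higher, with 201, 202 and 190 CPM in the atf1Δ-labelled libraries, against 110, 84.1 and 83.0 CPM in WT of RNA1 and 70.7, 70.3 and 75.4 CPM in WT of RNA2 (1.28 ± 0.17, larger adjusted p = 3.9e-05). pyp1, a tyrosine phosphatase that inactivates Sty1, was lower at 25.8, 28.8 and 33.0 CPM, against 47.0 to 74.4 CPM in WT (-0.98 ± 0.17, larger adjusted p = 0.00055). The response regulator mcs4 and the phosphatase ptc4 were lower by smaller amounts (-0.46 ± 0.10 and -0.31 ± 0.07).

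Of 15 transcription factors of stress, 1 was higher (6.67%), the bZIP factor gene atf31, and 3 were lower (20%), hsr1, moc3 and phx1, against 12.7% and 12.6% of all tested genes. hsr1 was at 64.7, 62.8 and 62.4 CPM, against 110, 197 and 259 CPM in WT of RNA1 and 262, 201 and 111 CPM in WT of RNA2 (-1.58 ± 0.30, larger adjusted p = 0.0003). The 3 atf1Δ-labelled values were close together while WT libraries of one series differed more than 2-fold. moc3 was steadier (68.0 to 76.1 CPM against 110 to 142 CPM, -0.81 ± 0.07). SPAC2H10.01, annotated as a transcription factor and among the 15 largest falls, had 4.44, 5.44 and 4.36 CPM, against 43.6, 60.5 and 77.7 CPM in WT of RNA1 and 32.7, 22.1 and 19.2 CPM in WT of RNA2 (-3.02 ± 0.21, larger adjusted p = 5.4e-10). It also differed between the WT series, by 1.29 on the log2 scale.

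Chaperone genes were higher in part, and of all lists this is the one in which the WT series differed most often. Of 25 tested (median 0.43), 10 were higher (40%) and 1, hsp9, lower (4%), against 12.7% and 12.6% of all tested genes, and 20 of the 25 differed between the WT series. hsp16, a small heat shock protein, had 182, 334 and 418 CPM in the atf1Δ-labelled libraries, against 43.1, 20.1 and 12.9 CPM in WT of RNA1 and 110, 53.7 and 27.1 CPM in WT of RNA2 (2.95 ± 0.31, larger adjusted p = 1.2e-05). Its values did not overlap between atf1Δ-labelled and WT libraries. It was at 280, 275 and 196 CPM in the clr4Δ-labelled libraries and at 49.0, 29.6 and 35.1 CPM in the pcr1Δ-labelled ones, so within RNA3 it differed from pcr1Δ-labelled (3.04 ± 0.39, adjusted p = 5.3e-06) and was not called against clr4Δ-labelled libraries.

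ssa1, an Hsp70, had 450, 676 and 709 CPM in the atf1Δ-labelled libraries, against 27.6, 54.2 and 29.6 CPM in WT of RNA1 and 212, 170 and 127 CPM in WT of RNA2 (2.94 ± 0.20, larger adjusted p = 3.7e-07). WT of RNA1 was below WT of RNA2 (-2.19, adjusted p = 3.6e-07), and the clr4Δ-labelled libraries, at 452 to 595 CPM, were not distinguished by the test from the atf1Δ-labelled ones. hsp104, the disaggregase, was higher by 2.17 ± 0.21, psi1, a DnaJ-type co-chaperone, by 1.58 ± 0.14, and sti1 by 1.01 ± 0.10. Altogether 6 of the 10 higher chaperone genes were also higher than in the clr4Δ-labelled libraries. hsp90 (8183 to 8455 CPM against 3677 to 8305 CPM in WT) differed from RNA1 but was not called against RNA2 (adjusted p = 7.5e-09 and 0.62).

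**Figure D3:**
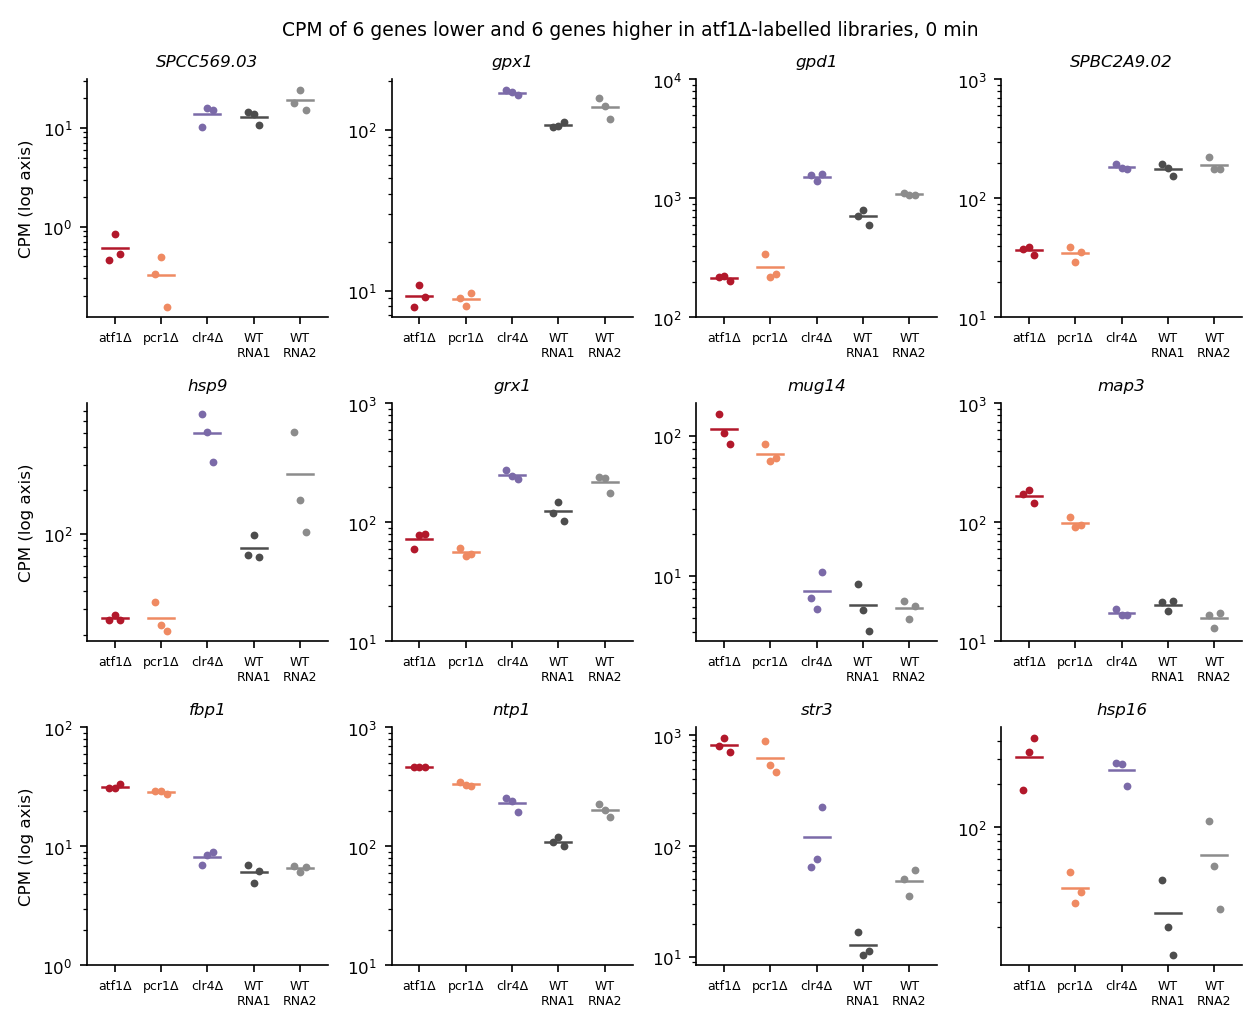
CPM (log axis) of 6 genes lower and 6 higher in the atf1Δ-labelled libraries, in unheated libraries of each labelled strain; each point is 1 library and the bar is the mean of 3. The lower genes and mug14, map3, fbp1 and str3 have atf1Δ-labelled and pcr1Δ-labelled values on the same side of WT, whereas hsp16 is high in the atf1Δ-labelled and clr4Δ-labelled libraries and low in the pcr1Δ-labelled ones.

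Genes of peroxide and glutathione defence were split between enzymes. Of 24 tested, 7 were higher (29.2%) and 4 lower (16.7%), against 12.7% and 12.6% of all tested genes, and the 4 were gpx1, grx1, ctt1 and obr1. grx1, a glutaredoxin, had 60.2, 78.1 and 80.5 CPM in the atf1Δ-labelled libraries, against 121, 149 and 102 CPM in WT of RNA1 and 240, 238 and 178 CPM in WT of RNA2 (-1.18 ± 0.14, larger adjusted p = 0.00021). tpx1, the peroxiredoxin that removes hydrogen peroxide and relays its signal, was higher, with 2153, 2809 and 2671 CPM against 1073, 1011 and 900 CPM in WT of RNA1 and 604, 704 and 525 CPM in WT of RNA2 (1.71 ± 0.17, larger adjusted p = 2.9e-06). The atf1Δ-labelled values of tpx1 were all above WT, as were those of srx1, the sulfiredoxin that repairs it (52.6 to 59.0 CPM against 18.9 to 34.6 CPM, 1.24 ± 0.16, larger adjusted p = 0.00027).

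gst2, a glutathione S-transferase, had 1636, 1506 and 1951 CPM in the atf1Δ-labelled libraries and 667, 684 and 691 CPM in the pcr1Δ-labelled ones, against 944, 634 and 553 CPM in WT of RNA1 and 564, 326 and 391 CPM in WT of RNA2 (1.62 ± 0.19 against WT, larger adjusted p = 5.1e-05; 1.32 ± 0.23 against pcr1Δ-labelled, adjusted p = 0.00075). caf5, a plasma membrane transporter linked to caffeine resistance, was likewise high in the atf1Δ-labelled libraries (175, 190 and 286 CPM) and not in the pcr1Δ-labelled ones (56.1, 58.3 and 60.4 CPM), against 41.8 to 112 CPM in WT (1.69 ± 0.29, larger adjusted p = 0.0011). obr1, a quinone oxidoreductase, stood between its levels in pcr1Δ-labelled and WT libraries: 929 to 1109 CPM in atf1Δ-labelled and 367 to 494 CPM in pcr1Δ-labelled libraries, against 1204 to 1739 CPM in WT. Its call against WT (-0.55 ± 0.17, larger adjusted p = 0.033) ended without atf1Δ-labelled replicate 1 or 2, WT of RNA1 replicate 1 or WT of RNA2 replicate 1 or 3 (0.0765, 0.118, 0.0793, 0.148 and 0.0722).

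Genes repressed by glucose were higher in part. Of 13 tested genes of glucose repression and hexose transport (median 0.56), 7 were higher (53.8%) and 1 lower (7.69%), against 12.7% and 12.6% of all tested genes. Of the 7, 4 were also higher than in the clr4Δ-labelled libraries, beside 83.1% of the higher calls over all genes, and the 1 lower gene was also lower. fbp1, fructose-1,6-bisphosphatase of gluconeogenesis, had 31.0, 30.9 and 33.4 CPM in the atf1Δ-labelled libraries, against 7.04, 4.95 and 6.21 CPM in WT of RNA1 and 6.83, 6.14 and 6.72 CPM in WT of RNA2 (2.33 ± 0.10, adjusted p = 2.1e-16 and 1e-15). Here the WT series matched closely and the groups were far apart; the pcr1Δ-labelled libraries (27.6 to 29.2 CPM) were high and the clr4Δ-labelled ones (6.94 to 8.89 CPM) low. inv1, the secreted invertase, had 27.2, 28.9 and 32.0 CPM, against 5.41 to 7.14 CPM in WT (2.19 ± 0.16, larger adjusted p = 1.6e-10), but was also at 17.8 to 29.2 CPM in the clr4Δ-labelled libraries. Of the ght transporter genes, ght3, annotated as a gluconate symporter, and the hexose transporter genes ght4, ght5 and ght7 were higher (1.83 ± 0.19, 0.76 ± 0.09, 1.14 ± 0.16 and 1.98 ± 0.31). The hexose transporter gene ght8 was lower (-0.64 ± 0.10). ght5, the main high-affinity glucose transporter, was lower than in the pcr1Δ-labelled libraries (146 to 202 CPM against 301 to 321 CPM).

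In the cAMP pathway, through which glucose represses these genes, 3 of 12 tested genes were higher and 3 lower (25% each, against 12.7% and 12.6% of all tested genes). pka1, the catalytic subunit of protein kinase A, had 171, 153 and 168 CPM, against 78.9, 73.8 and 79.1 CPM in WT of RNA1 and 100, 92.3 and 108 CPM in WT of RNA2 (0.90 ± 0.09, larger adjusted p = 1.1e-06). Its inhibitory regulatory subunit gene cgs1 rose too, to 32.3, 53.1 and 47.6 CPM, against 15 to 22.7 CPM in WT (1.22 ± 0.23, larger adjusted p = 0.0011). Upstream, the glucose receptor git3 (-0.45 ± 0.08) and the G protein beta subunit git5 (-1.09 ± 0.15, 10.8 to 11.8 CPM against 17.9 to 34.4 CPM) were lower. In glycolysis 1 of 17 genes was higher (5.88%; pgi1, 0.66 ± 0.10) and 2 lower (11.8%), near or below the share of all tested genes. The lower ones were adh4, an alcohol dehydrogenase (117 to 145 CPM against 235 to 276 CPM, -0.99 ± 0.10), and eno102, an enolase gene 58.1 kb from the left end of chromosome II. eno102 had 1, 0 and 0 raw counts in the atf1Δ-labelled libraries, against 30, 74 and 48 in WT of RNA1 and 60, 31 and 18 in WT of RNA2, a ratio of 0.00691 per library size (exact 95% interval 0.000174 to 0.0389, counting error only). It had 12.6 to 18.9 CPM in the clr4Δ-labelled libraries.

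map3 and map1, mating genes of P cells, were among the largest rises, while the P-cell genes map2 and map4 were not called. h+ cells are of the P type, and conjugation starts, normally on nitrogen starvation, when the HMG-box factor Ste11 switches on pheromone and receptor genes. Of 25 tested genes, 9 were higher (36%) and none of the 25 was called lower (median 0.49), against 12.7% and 12.6% of all tested genes. All 9 were also higher than in the clr4Δ-labelled libraries. map3, the receptor for M-factor, had 172, 187 and 144 CPM in the atf1Δ-labelled libraries, against 21.3, 18.1 and 21.7 CPM in WT of RNA1 and 16.6, 13.0 and 17.1 CPM in WT of RNA2 (3.24 ± 0.11, adjusted p = 1.6e-17 and 3.6e-18). The pcr1Δ-labelled libraries lay between (91.2 to 110 CPM), below the atf1Δ-labelled ones (0.76, adjusted p = 0.00033).

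map1, the MADS-box activator of P-specific genes, was at 33.1, 32.0 and 26.8 CPM, against 2.82 to 5.41 CPM in WT (2.95 ± 0.18, larger adjusted p = 5.6e-12). ste11 had 136, 120 and 103 CPM, against 24.6, 39.4 and 42.1 CPM in WT of RNA1 and 55.7, 46.2 and 48.9 CPM in WT of RNA2 (1.51 ± 0.16, adjusted p = 6.9e-09 and 3e-06). Kinases of the pheromone MAP kinase cascade were higher at all levels: byr2, the MAPKKK, by 0.98 ± 0.10, byr1, the MAPKK, by 0.49 ± 0.09, and spk1, the MAPK, by 1.33 ± 0.14. ste4, an adaptor of Byr2, and rgs1, which damps pheromone signalling, were higher by 0.87 ± 0.15 and 0.91 ± 0.14. mei2, the RNA-binding protein that starts meiosis, was at 44.5 to 58.8 CPM against 7.83 to 26.5 CPM (1.44 ± 0.20, larger adjusted p = 0.00014). Genes for M-factor (mfm1, mfm2 and mfm3) and for mam2, the P-factor receptor of M cells, stayed at or below 6.53 CPM in all atf1Δ-labelled and WT libraries and were not called. map2, which encodes P-factor, was at 5.25 to 7.2 CPM against 3.99 to 7.95 CPM and was not called. map4, an agglutinin of P cells, had 27.8, 31.2 and 28 CPM, against 19.1 to 43.4 CPM in WT, and was not called either (0.02 ± 0.17, adjusted p = 0.26 and 0.2).

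On a list of nitrogen starvation and amino acid uptake genes, 7 of 16 were higher (43.8%) and 3 lower (18.8%), against 12.7% and 12.6% of all tested genes. The list members described next were all among the higher ones. mug14, annotated as an adducin, had 143, 105 and 87.2 CPM in the atf1Δ-labelled libraries, against 8.71, 5.74 and 4.08 CPM in WT of RNA1 and 6.63, 4.89 and 6.14 CPM in WT of RNA2 (4.20 ± 0.16, adjusted p = 6.2e-17 and 1.5e-16). isp3, a protein of the spore wall, was at 57.4, 67.4 and 59.9 CPM, against 7.66 to 11.2 CPM in WT (2.65 ± 0.12, larger adjusted p = 6.5e-15); it overlaps SPNCRNA.606 on the opposite strand, which was higher too (26.9 to 45.5 CPM against 3.33 to 6.45 CPM). per1, an amino acid permease, and atg8, the ubiquitin-like protein of autophagy, were higher by 1.60 ± 0.12 and 0.65 ± 0.08. mug153, named for upregulation in meiosis, had the largest rise of the named genes. It was at 55.1, 63.6 and 56.1 CPM, against 0.088, 0.618 and 0.713 CPM in WT of RNA1 and 1.02, 1.14 and 1.07 CPM in WT of RNA2 (6.34 ± 0.24, adjusted p = 3.9e-17 and 3.9e-16). On a list of 115 mug and meu genes, added after the values were seen, 105 were tested. Of these, 17 were higher and 16 lower (16.2% and 15.2%, median 0.03), near the background of 12.7% and 12.6%.

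Most iron uptake genes were higher, with a wide spread among libraries. Of 12 tested genes (median 0.87) 7 were higher (58.3%) and 1 lower (8.33%), against 12.7% and 12.6% of all tested genes, and 3 of the 7 were also higher than in the clr4Δ-labelled libraries. str3, a siderophore-iron transporter, had 792, 938 and 712 CPM in the atf1Δ-labelled libraries, against 16.8, 10.5 and 11.4 CPM in WT of RNA1 and 50.8, 35.5 and 60.3 CPM in WT of RNA2 (log2 fold change 5.97 ± 0.50 against RNA1 and 4.06 ± 0.45 against RNA2, larger adjusted p = 9.9e-09). It differed between the WT series (-1.92, adjusted p = 0.0032) and varied within the other strains of RNA3, at 468 to 885 CPM in the pcr1Δ-labelled and 65.2 to 224 CPM in the clr4Δ-labelled libraries. frp1, a ferric reductase, fio1, a multicopper oxidase, and fip1, the iron permease that works with it, were higher by 2.53 ± 0.29, 2.40 ± 0.35 and 1.99 ± 0.36 (larger adjusted p = 3.7e-05, 0.00034 and 0.0035), and these 3 were not called against the clr4Δ-labelled libraries. str1 (1.85 ± 0.21) and sib1, ferrichrome synthetase (0.88 ± 0.11), completed the uptake set with php4, a regulator of iron use (0.55 ± 0.08). pcl1, which moves iron into the vacuole, was lower at 121, 72.4 and 70.6 CPM, against 153 to 210 CPM in WT (-1.11 ± 0.16), and fet4, an iron and zinc transporter of low affinity, at 4.44 to 4.94 CPM against 20.9 to 28.7 CPM (-2.39 ± 0.15, larger adjusted p = 1.1e-12).

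On a list of 5 genes of phosphate uptake and its control, 3 were lower (60%, against 12.6% of all tested genes). These were pho1 and, by small amounts, pho7, a transcription factor gene (-0.37), and pqr1, a ubiquitin ligase gene (-0.49). pho1, the secreted acid phosphatase, had 120, 152 and 113 CPM, against 211, 519 and 580 CPM in WT of RNA1 and 541, 534 and 180 CPM in WT of RNA2 (-1.74 ± 0.45, larger adjusted p = 0.0052). The phosphate transporter pho84 lay on the other side, at 945 to 1039 CPM against 530 to 781 CPM, and missed the threshold (0.61 ± 0.21, adjusted p = 0.054 and 0.053).

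**Figure D4:**
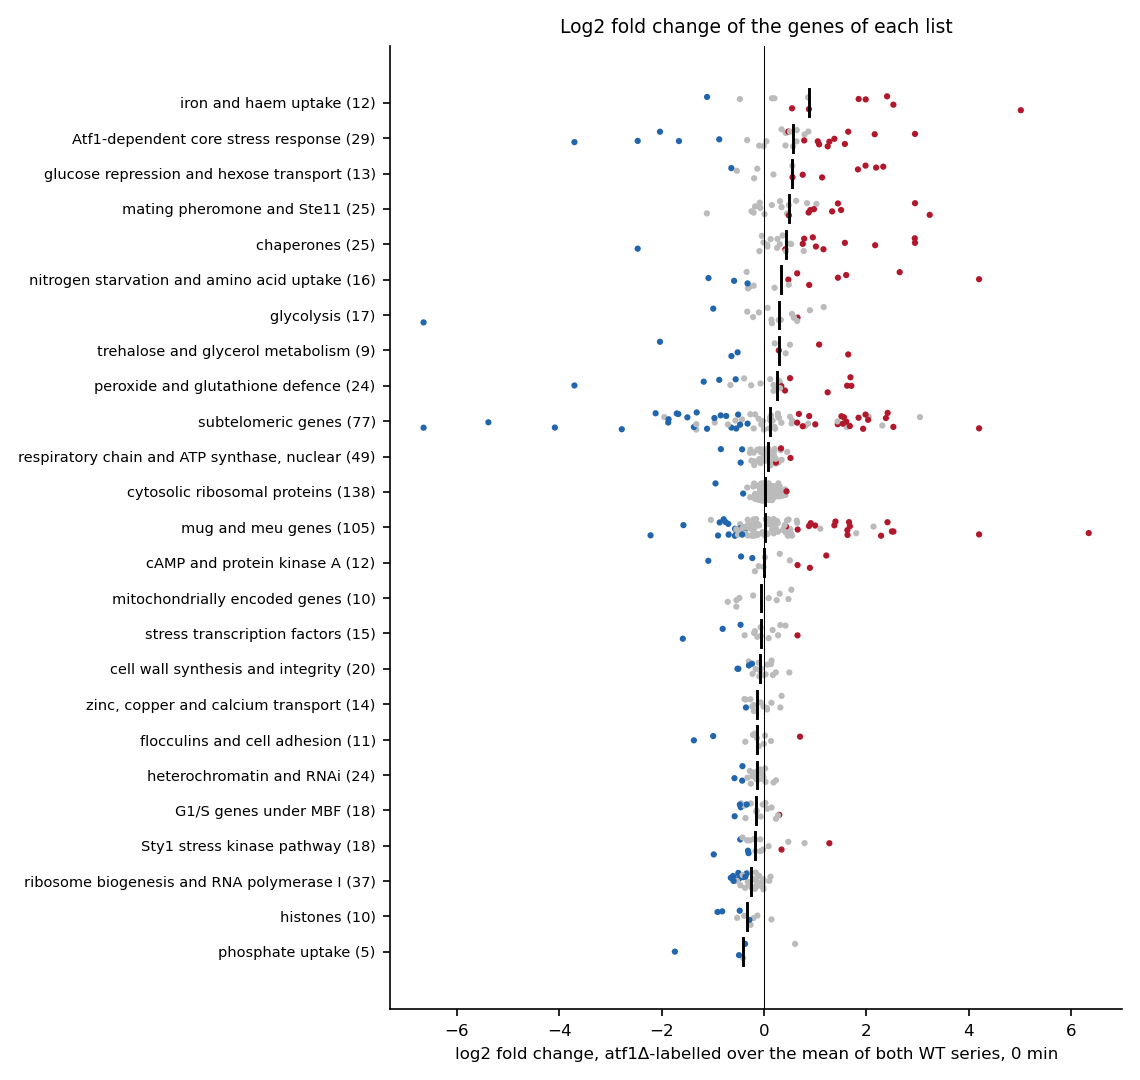
Log2 fold change of the atf1Δ-labelled libraries over the mean of both WT series for the genes of each list, with the number tested in brackets; the black bar is the median, red points were called higher and blue points lower against both WT series, and grey points were not called. Iron uptake has the highest median (0.87) and phosphate uptake the lowest (-0.41) of the lists shown, and most lists hold both red and blue points.

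Histone genes, which supply chromatin in S phase, were lower at 4 of 10 (40%, against 12.6% of all tested genes), with no histone gene called higher (median -0.34). The divergent pair hht3 and hhf3, one of the 3 gene pairs for H3 and H4, changed most. hht3 had 250, 249 and 246 CPM in the atf1Δ-labelled libraries, against 420, 418 and 386 CPM in WT of RNA1 and 537, 533 and 527 CPM in WT of RNA2 (-0.91 ± 0.09, larger adjusted p = 3.6e-07). hhf3 was at 157, 181 and 160 CPM, against 235 to 350 CPM in WT (-0.81 ± 0.11, larger adjusted p = 2.2e-05). The CRE core printed above for hhf3 also lies at -89 from the ASM294v3 start of hht3, whose ASM294v2 start is 92 bases further upstream and leaves the core at the transcript's edge, and their annotated transcripts overlap other genes on opposite strands. hht1 and hht2 (-0.13 ± 0.08 and -0.26 ± 0.14) and hhf1 and hhf2 (-0.39 ± 0.12 and 0.15 ± 0.09) were not called. hta2 (H2A) and pht1 (H2A.Z) were lower by small amounts (-0.47 ± 0.11 and -0.28 ± 0.07, larger adjusted p = 0.041 and 0.037). The call of hta2 ended without atf1Δ-labelled replicate 2 or 3 or WT of RNA1 replicate 1 or 2 (0.14, 0.149, 0.11 and 0.105), and that of pht1 without atf1Δ-labelled replicate 1 or 2 or WT of RNA1 replicate 1 or 3 (0.138, 0.0576, 0.0698 and 0.149).

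The changes in growth genes were small. Ribosome biogenesis and RNA polymerase I were covered by 37 tested genes, of which 11 were lower (29.7%, against 12.6% of all tested genes) and none of the 37 was called higher (median -0.25). Of the 11, 7 were also lower than in the clr4Δ-labelled libraries. erb1 and dbp10, both needed to make the large subunit, were lower by -0.60 ± 0.12 and -0.59 ± 0.08, and rrn3, which recruits RNA polymerase I, by -0.60 ± 0.09. The 138 cytosolic ribosomal protein genes had 1 higher and 2 lower calls (0.725% and 1.45%, median 0.03), below the 12.7% and 12.6% of all tested genes. One of the ribosomal protein genes called, rpp202, was at 271, 281 and 226 CPM in the atf1Δ-labelled and 496 to 618 CPM in the pcr1Δ-labelled libraries, against 358 to 642 CPM in WT (-0.95 ± 0.13, larger adjusted p = 2.8e-05). Among 49 nuclear genes of the respiratory chain and ATP synthase, 3 were higher and 3 lower (6.12% each, median 0.08), also below those shares, sdh2 of complex II being the lowest of those named (-0.84 ± 0.14).

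Of 24 genes of heterochromatin and RNA interference, 3 were lower (12.5%, near the 12.6% of all tested genes) and none was called higher. swi6, an HP1 protein, had 79.4, 70.0 and 74.4 CPM, against 99.5, 105 and 112 CPM in WT of RNA1 and 114, 133 and 105 CPM in WT of RNA2 (-0.58 ± 0.10, larger adjusted p = 0.00076). The other two were smaller, chp2, a further HP1 protein, at -0.42 ± 0.11 and epe1, an antagonist of heterochromatin, at -0.42 ± 0.10 (larger adjusted p = 0.012 and 0.018). chp2 lost its call without atf1Δ-labelled replicate 2 or WT of RNA2 replicate 2 (0.103 and 0.106), and epe1 without atf1Δ-labelled replicate 2 or 3 or WT of RNA2 replicate 1 (0.06, 0.0529 and 0.0663). The cell wall list had 4 of 20 lower (20%), flocculins 1 of 11 tested higher (9.09%) and 2 lower (18.2%), G1/S genes 1 of 18 higher (5.56%) and 4 lower (22.2%), and zinc, copper and calcium transport 1 of 14 lower (7.14%), against 12.7% higher and 12.6% lower over all tested genes. Of 3 tested Tf2 retrotransposons 1 was lower. The 10 tested mitochondrially encoded genes had no call, at a few CPM at most in nearly all libraries.

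Genes outside these lists made up much of the lower end. SPCC569.03, an uncharacterized protein, had 5, 10 and 6 raw counts in the atf1Δ-labelled libraries, against 165, 156 and 105 in WT of RNA1 and 175, 230 and 156 in WT of RNA2 (-4.64 ± 0.33, larger adjusted p = 7.5e-12). The pcr1Δ-labelled libraries, at 0.156 to 0.492 CPM, were at the same low level, against 10.2 to 15.8 CPM in the clr4Δ-labelled ones. SPBC2A9.02, of the NAD-dependent epimerase family, was steady within every group: 37.9, 39.1 and 33.7 CPM in the atf1Δ-labelled libraries and 29.1 to 39.4 CPM in the pcr1Δ-labelled ones, against 196, 179 and 156 CPM in WT of RNA1 and 221, 176 and 177 CPM in WT of RNA2 (-2.32 ± 0.13, larger adjusted p = 6.7e-15).

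A divergent pair on chromosome II fell together. abp2, which binds replication origins, had 27.2, 27.7 and 29.8 CPM, against 81.2, 153 and 212 CPM in WT of RNA1 and 204, 161 and 75.9 CPM in WT of RNA2 (-2.39 ± 0.34, larger adjusted p = 3.6e-06). cnp3, the CENP-C protein of the kinetochore, had 20.5, 19.4 and 18.9 CPM, against 48.6, 135 and 151 CPM in WT of RNA1 and 113, 103 and 37.2 CPM in WT of RNA2 (-2.30 ± 0.41, larger adjusted p = 0.00031). In both genes WT of RNA1 replicate 1 and WT of RNA2 replicate 3 were the lowest WT libraries, and still above the atf1Δ-labelled ones. The same 2 libraries were lowest in WT for hsr1.

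On the higher side, SPAC4H3.03c, annotated as a glucan 1,4-alpha-glucosidase, had 71.3, 63.5 and 68.7 CPM in the atf1Δ-labelled and 30.0 to 38 CPM in the pcr1Δ-labelled libraries, against 2.34 to 5.92 CPM in WT (4.23 ± 0.23, larger adjusted p = 1.1e-12). SPMTR.01, for which the annotation used here gives no position, was at 40.4 to 43.7 CPM against 1.94 to 3.16 CPM (4.02 ± 0.17). mug106 (2.50 ± 0.14) and cmt2, a catechol O-methyltransferase (2.42 ± 0.15), were higher as well, cmt2 being at the same level in the clr4Δ-labelled libraries (33.4 to 36.9 CPM, against 27.0 to 45.2 CPM in the atf1Δ-labelled ones). SPBC1683.12, a nicotinic acid transporter, was at 83.7, 82.9 and 85.6 CPM against 18.2 to 24.6 CPM in WT (1.94 ± 0.10, larger adjusted p = 2.6e-13).

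Among non-coding RNAs, SPNCRNA.935 had 222, 258 and 226 CPM in the atf1Δ-labelled libraries, against 24.7, 25.2 and 17.0 CPM in WT of RNA1 and 46.0, 32.2 and 19.6 CPM in WT of RNA2 (3.12 ± 0.27, larger adjusted p = 3.9e-08). It lies upstream of per1 on the same strand in build ASM294v2 (SPNCRNA.935 at I:3745778-3748833, per1 at I:3748767-3751729), so their annotated ends overlap. SPNCRNA.577 was higher by 2.76 ± 0.25, overlapping SPBC1652.02 on the opposite strand. SPNCRNA.863 was lower, at 48.2, 33.8 and 39 CPM against 164 to 271 CPM (-2.39 ± 0.26, larger adjusted p = 3.7e-08).

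Position along the chromosome was looked at because several large changes lay near chromosome ends. Of 60 tested genes within 50 kb of an end, 10 were higher and 9 lower, and between 50 and 100 kb 23 of 129 were higher (17.8%) and 34 lower (26.4%), against 12.3% and 12.1% of the 5659 genes farther than 200 kb. In the stretch between 50 and 100 kb on chromosome I 15 of 40 genes were higher (37.5%) and 6 lower (median 0.53), on chromosome II 3 of 36 were higher and 16 lower (44.4%, median -0.64), and on chromosome III 5 of 53 were higher and 12 lower (22.6%, median -0.06). A difference between chromosomes was not tested. Neighbouring genes share their surroundings and are not independent.

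The fall on chromosome II included a run of neighbours near the left end: aes1 (II:70156-71310, -1.31 ± 0.23), SPBPB21E7.08 (II:72081-73390, -2.78 ± 0.21), SPBPB10D8.01, a cysteine transporter (II:80899-83357, -1.70 ± 0.16), SPBPB10D8.02c, an arylsulfatase (II:83229-85631, -1.67 ± 0.15), and SPBPB10D8.03 (II:87727-89029, -1.50 ± 0.20), all in build ASM294v2. Not every gene of this stretch fell: cmt2 (II:64487-65620 in the same build) was higher by 2.4. SPBPB21E7.08 had 3.15, 2.93 and 1.87 CPM, against 14.1, 22.2 and 22.5 CPM in WT of RNA1 and 20.2, 14.8 and 15.9 CPM in WT of RNA2. On the right end of chromosome II, gal1, galactokinase, was at 7.13 to 12.9 CPM against 27.5 to 55.5 CPM (-1.86 ± 0.23), and nrg1, an amino acid permease, had 9, 6 and 6 raw counts against 18 to 215 in WT (-4.08 ± 0.79, larger adjusted p = 0.00024). In the clr4Δ-labelled libraries gal1 read 50 to 65.0 CPM and nrg1 30.9 to 35.3 CPM. On a list of 134 subtelomeric genes 77 were tested, of which 19 were higher (24.7%) and 21 lower (27.3%), against 12.7% and 12.6% of all tested genes. Of these, 12 of the 19 and 21 of the 21 were called the same way against the clr4Δ-labelled libraries, beside 83.1% of the higher and 81.1% of the lower calls over all genes.

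Set against the pcr1Δ-labelled libraries, the atf1Δ-labelled ones differed at 87 genes. Of these 87, whichever way they differed from pcr1Δ-labelled libraries, 63 were called higher than both WT series, 10 lower and 14 not called. The direction was not always shared: of the 77 genes higher than in pcr1Δ-labelled libraries 62 were called higher than WT and 2, obr1 among them, lower, and of the 10 that were lower 8 were called lower than WT and 1, ght5, higher, while atf1 was not called against WT. hsp16, gst2, caf5 and map3 have been given above, and ssa1 only beside the WT and clr4Δ-labelled libraries. SPCC663.08c averaged 173 CPM in the atf1Δ-labelled and 55.1 CPM in the pcr1Δ-labelled libraries (1.65 ± 0.30, adjusted p = 0.00125), and osr1 110 CPM and 26.8 CPM (2.03 ± 0.32, adjusted p = 0.000188). For gpd1, gpx1, SPBC2A9.02, fbp1 and map1 the difference between these strains did not pass the test (log2 -0.30, 0.07, 0.09, 0.15 and 0.23, with SE 0.16, 0.22, 0.14, 0.11 and 0.19), which does not show that the strains act alike.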

How the data were processed

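The deposited values are counts of reads per gene, 1 file per library, which the authors made with STAR; per the submitters' processing notes the tools included STAR, deepTools, bedtools 2.17.0, Bowtie 0.12.9 and Trimmomatic 0.33, and the build was ASM294v2. The kit was KAPA mRNA HyperPrep, per the labels' protocols. The strand setting of the counting is not given in the sources used here. Groups, series names, times and replicate numbers were taken from the sample labels. Summary lines of the count files (unmapped, multimapping, outside genes, ambiguous) were left out of library sizes and tests; multimapping reads came to 9.04% to 17.3% of all reads in the 9 libraries compared, so genes with near-identical copies are uncertain. No 2 replicates agreed within sampling noise.

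All 39 mRNA-seq libraries were fitted together with edgeR 4.0.16 (R 4.3.3), using its quasi-likelihood test, group means, TMM normalization and 26 residual degrees of freedom, on the 6172 of 7015 gene identifiers that passed its filter on low counts (filterByExpr, minimum count 10, minimum total 15). p-values were adjusted by Benjamini-Hochberg over all tested genes in each contrast, and CPM are counts per 1e+06 of the TMM-scaled library size. Fold changes are log2 with their standard error, against the mean of both WT series; the "larger adjusted p" is the larger of the values against RNA1 and RNA2. In simulated data with changes of known size the calls found 80.6% of 67 genes changed 1.5-fold, 98.5% of 67 changed 2-fold and 100% of 66 changed 4-fold, and 0 of 5956 unchanged genes. The simulation held no difference between series, and changes were put only into genes of at least 10 CPM in WT. These shares therefore do not cover false calls from series differences, nor recovery of changes at genes with fewer reads.

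Genes were named by a rule: atf1, pcr1, the neighbours of atf1 and the marker genes; the 15 largest mean changes each way among called genes without overlap and with a mean of at least 10 CPM; and from each gene list the 4 members with the smallest larger p. Genes named outside it were chosen after their values were seen: ste11, mei2, rgs1, ste4, byr1, map2, mam2 and mfm1 to mfm3; ctt1, rds1, tps1, plr1, pyp2, obr1, caf5, srx1 and sty1; hsp90, psi1 and sti1; str1, fip1, fio1 and php4; ght5, ght7 and ght8; hht1, hht2, hhf1 and hhf2; clr4, gal1, nrg1, aes1, SPBPB10D8.01, SPBPB10D8.02c, SPBPB10D8.03, SPCC663.08c and osr1. The comparison, the lists and the rule were chosen with earlier results of these data known. Gene positions are those of ASM294v2; promoter windows were read from the RefSeq genome of ASM294v3 with its own annotation. Of 6840 genes matched in both annotations, 6796 had the same 3′ end, and 1996 of these the same 5′ start (29.4%); where the starts differed, the median distance was 51 bases. As an alternative, starts were moved by the difference in gene length. ChIP-seq and PRO-seq data were not used here.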

Additional observations from a re-analysis of the deposited data

How the results depend on the processing

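The counts of called genes kept their size within 1.5 times when DESeq2 size factors, library totals, no filter on low counts, the DESeq2 1.42.0 Wald test or the 9 libraries alone were used (657 to 810 higher and 709 to 811 lower), and 0 of the genes called by the reported fit were called in the opposite direction under any alternative. Stricter rules gave fewer genes: 237 higher and 121 lower with at least a 2-fold difference against each series, and 494 lower (594 higher) at adjusted p under 0.01. A call against the mean of both WT series, without the demand on each, gave 1400 higher and 1347 lower. A call also against the clr4Δ-labelled libraries, an alternative added after the data were seen, left 653 higher and 629 lower. Leaving out 1 of the 9 libraries at a time gave 669 to 758 genes higher and 582 to 741 lower than both series, 2039 to 2549 called against RNA1, 2096 to 2640 against RNA2, 2167 to 2690 against their mean, 2417 to 2881 against clr4Δ-labelled, 59 to 94 against pcr1Δ-labelled libraries and 1099 to 1454 between the WT series. Replicate numbers did not pair the libraries in all groups alike. Correlations of same-numbered deviations were 0.097 to 0.275 between atf1Δ-labelled libraries and WT of RNA1. They were -0.136 to 0.104 between atf1Δ-labelled libraries and WT of RNA2, and -0.317 to 0.037 between the WT series. A fit with the replicate number as a block called 843 genes higher and 860 lower, 1560 of the 1562 among them in the same direction. Scaling by library totals put the median log2 fold change of all genes at -0.02 (0.01 with TMM). Of the named genes' values under all alternatives, 2386 kept direction and side of the threshold, 74 fell below it, 11 passed it and 0 turned; for the other weaker calls the cause was not tested. The depth of 8693850 to 11931806 counts limits statements on genes at a few CPM, and series and strain cannot be told apart.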
